A study of Homo sapiens with 18 samples.

Results

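The promoters described here are those of the cytoplasmic ribosomal protein genes, taken from a genome-wide ATAC-seq table of ovarian cancer cell lines. Genes were chosen by symbol, as protein-coding genes on chromosomes 1 to 22 whose symbol begins with RPL or RPS and a digit, or is RPLP0, RPLP1, RPLP2 or RPSA, leaving out the RPS6K kinases. The rule took 84 genes, and 7 further symbols on the sex chromosomes were outside it. Windows of 1000 bp that came within 500 bp of the GENCODE canonical start (GRCh37, hg19) were the members, and 140 of 184 such windows were among the 89428 windows of the table. For 79 genes the window holding the start was in the table, over 78 distinct windows, since RPS10 and the read-through gene RPS10-NUDT3 shared 1. The other 5 genes were not analysed here. The rule also took genes that are not core ribosomal proteins, namely 6 paralogues with a start window and 3 read-through or unrelated symbols, RPS10-NUDT3, RPL17-C18orf32 and RPS19BP1.

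Ribosomal proteins assemble with ribosomal RNA into the small subunit, which decodes the messenger RNA, and the large subunit, which forms peptide bonds. Their genes are transcribed in every dividing cell, mostly from CpG-rich promoters without a TATA box, and many start at a cytosine within a run of pyrimidines. The resulting terminal oligopyrimidine tract, or TOP, at the head of the messenger RNA makes its translation responsive to growth signalling through mTOR.

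Chromatin accessibility was measured with the Tn5 transposase, which inserts sequencing adapters into open DNA, in 6 established cell lines with 3 replicate libraries each. The sensitive lines were A2780, PEA1 and PEO1, and their resistant partners were CP70, PEA2 and PEO4, so that the lines formed 3 pairs. CP70 is a platinum-resistant derivative of A2780 selected in culture, and both are labelled endometrial/ovarian cancer. The PEA and PEO pairs are ovarian cancer lines of high-grade serous origin, each pair from 1 patient before and after resistance. All lines grew untreated in the same serum-containing RPMI-1640 medium, with no drug present. Each condition of a pair is 1 line, so a difference within a pair is a difference between those lines. The labels do not say whether replicates were separate cultures, so p-values measure only the spread between these libraries.

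The 18 libraries held between 8972042 and 60495462 reads by the value of 1 read in each column. The share of a library inside the table ranged from 8.37% to 40.8%, lowest in A2780 and highest in PEO1. The start windows of the ribosomal protein genes held 8 reads or more in every library, with line medians of 38 to 128 reads. Of the lineage markers, PAX8, WT1 and the 5 epithelial markers with a start window were higher in both PEO lines than in the other 4. The same held for 74.3% of all promoters, so this is no feature of the markers. The PAX8 window was at 5.60 to 7.90 FPKM in the PEO lines, 2.47 to 3.37 in the PEA lines and 0.61 to 0.90 in A2780 and CP70. SOX17 ran the other way, lowest in PEO4 (0.66 FPKM) and PEO1 (0.72) and highest in PEA2 (2.33), and MECOM was highest in PEO1 (7.12) but at 1.52 in PEO4, below PEA1 (2.64) and PEA2 (2.70). All 4 markers of Müllerian carcinoma and 5 of 6 epithelial markers had a start window in the table. None of 8 markers of blood, endothelial and stromal cells did. In bulk chromatin, fewer cells with an open promoter and a less open promoter in each cell cannot be told apart.

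The start regions of 8 genes are shown, 7 that were among the named changes within a pair (RPS12, RPS23, RPLP1, RPS18, RPL38, RPL22L1 and RPL35A) and 1 with the narrowest range over lines (RPL21). They are not the whole of the largest changes: RPS2, RPL8, RPL39L and RPS3A, also described here, are not among them. Each run reads from 120 bases before the RefSeq start and ends 20 bases into the transcript. The letters are RefSeq promoter sequence (GRCh38.p14), and the coordinates are those of the identical sequence in GRCh37. Capitals mark the pyrimidine run that begins at the start and any match, on either strand, to the motif letters searched.
RPS12, chr6:133135588-133135727 (+): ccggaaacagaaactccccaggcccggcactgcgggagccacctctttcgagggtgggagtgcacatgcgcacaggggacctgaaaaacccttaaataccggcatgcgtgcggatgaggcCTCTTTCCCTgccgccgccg
RPS23, chr5:81574154-81574293 (-): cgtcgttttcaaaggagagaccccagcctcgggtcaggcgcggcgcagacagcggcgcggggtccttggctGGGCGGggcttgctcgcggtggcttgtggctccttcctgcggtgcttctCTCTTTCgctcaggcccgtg
RPLP1, chr15:69745037-69745176 (+): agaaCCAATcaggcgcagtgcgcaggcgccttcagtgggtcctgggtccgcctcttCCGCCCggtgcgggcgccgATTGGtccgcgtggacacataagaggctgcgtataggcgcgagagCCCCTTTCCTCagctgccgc
RPS18, chr6:33239732-33239871 (+): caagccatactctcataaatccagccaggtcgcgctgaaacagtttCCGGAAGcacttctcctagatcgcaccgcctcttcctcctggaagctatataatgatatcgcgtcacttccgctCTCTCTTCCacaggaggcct
RPL38, chr17:72199697-72199836 (+): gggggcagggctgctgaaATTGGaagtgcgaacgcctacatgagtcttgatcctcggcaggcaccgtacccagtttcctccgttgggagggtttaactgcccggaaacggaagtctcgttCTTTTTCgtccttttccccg
RPL22L1, chr3:170587965-170588104 (-): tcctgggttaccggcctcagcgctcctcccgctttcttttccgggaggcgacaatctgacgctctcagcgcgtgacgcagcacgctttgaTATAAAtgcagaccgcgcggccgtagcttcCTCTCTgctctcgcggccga
RPL35A, chr3:197676941-197677080 (+): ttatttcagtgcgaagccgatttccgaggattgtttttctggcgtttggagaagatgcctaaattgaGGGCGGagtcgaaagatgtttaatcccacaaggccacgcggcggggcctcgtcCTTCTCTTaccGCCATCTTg
RPL21, chr13:27825575-27825714 (+): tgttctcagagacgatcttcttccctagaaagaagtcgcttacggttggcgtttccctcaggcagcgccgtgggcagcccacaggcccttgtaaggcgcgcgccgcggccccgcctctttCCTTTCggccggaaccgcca
In all 8 the transcript began with a cytosine followed by an unbroken run of pyrimidines, of 6 bases in RPL22L1 and RPL21 and of up to 11 in RPLP1. RPL9 and RPS28, named changes that are not shown, lack such a start, and in the whole family 40 of 62 promoters had it. RPL22L1 held TATAAA 30 bases before the start. The match to the ETS letters in RPS18 lay 74 bases before the start, and the match to the YY1 letters in RPL35A began at base 12 of the transcript, on the opposite strand. RPS12, among the 3 genes with the widest range over lines, and RPL21, with the narrowest, held no match in this stretch.

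Over the whole family, RefSeq promoters from 250 bases before to 50 bases after the start were found for 62 genes with a start window, beside 14519 promoters of protein-coding genes. RPL17 and RPL17-C18orf32 have the same RefSeq promoter, which is counted for each. The motifs were searched as exact letters on both strands, and none of the letter strings holds another. CCGGAAG, the core bound by ETS factors, occurred in 20 promoters (32.3%, against 14.6% of all promoters). AAGATGGC, bound by YY1, occurred in 7 (11.3%, against 4.0%). GGGCGG, bound by SP1, occurred in 32 (51.6%, against 59.8%), CCAAT, bound by NF-Y, in 22 (35.5%, against 36.2%) and TATAAA in 6 (9.68%, against 9.64%). The letters CTTTT stood exactly at the start, on the transcribed strand, in 5 promoters (8.07%, against 0.420%). A broader form that includes it, a cytosine followed by 4 pyrimidines at the start, was chosen after the values were seen and occurred in 40 promoters (64.5%, against 4.64%), and within 10 bases of the start in 52 (83.9%, against 34.0%). In percentage points this broader form was furthest from all promoters, as the plot of motif shares shows, whereas in proportion CTTTT was. Accessibility was nearly level for the ETS letters and the pyrimidine start. The median over the 6 lines was 3.94 FPKM in the 20 promoters with the ETS letters and 3.88 in the 42 without, and 3.98 in the 40 with the pyrimidine start and 3.63 in the 22 without. The 22 promoters with CCAAT had a median of 4.52 FPKM and the 40 without it 3.42. These are descriptions of letters in a window, with no test.

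**Figure D1:**
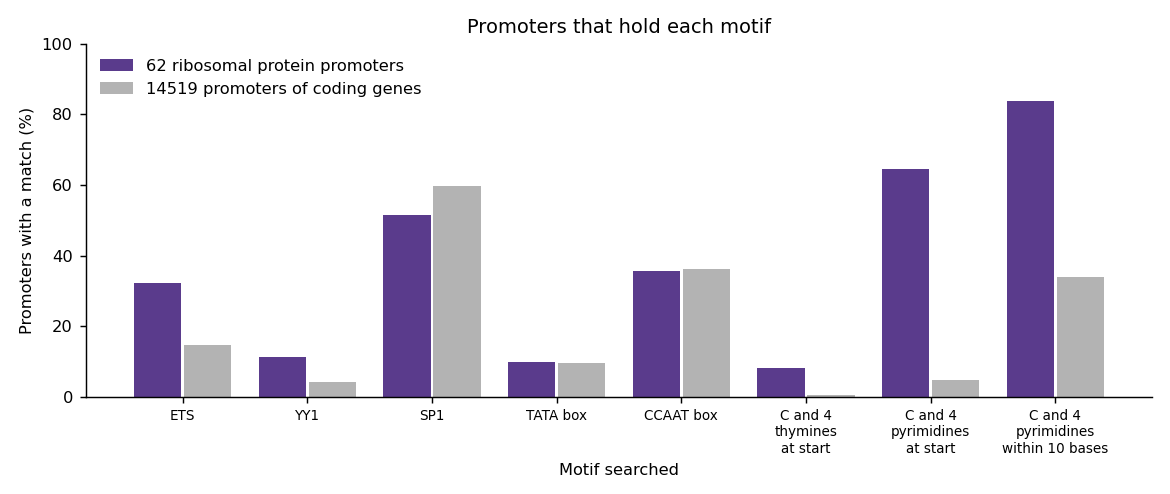
Percent of promoters (y axis) that hold each motif searched (x axis), for 62 ribosomal protein promoters (purple) and 14519 promoters of protein-coding genes (grey). The pyrimidine start occurred in 64.5% of the ribosomal protein promoters and in 4.64% of all promoters, while TATA and CCAAT letters differed little. SP1 letters occurred in 51.6% against 59.8%.

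Accessibility of the ribosomal protein promoters was moderate, and its median lay below that of the coding-gene promoters in the table in every line. The median over the 78 start windows was 1.95 FPKM for A2780 against 2.86 for CP70, 2.79 for PEA1 against 1.92 for PEA2, and 6.68 for PEO1 against 6.52 for PEO4. Over the 12267 start windows of protein-coding genes in the table it was 2.05, 3.19, 3.27, 2.63, 7.31 and 7.30 FPKM in the same order. These windows cover 13216 of 18978 coding genes, against 79 of 84 genes of the family. Promoters absent from the table are in neither median. All windows have the same length, so levels of different genes can be set side by side. Each library's median over the family, divided by that over all promoters, was 0.94 ± 0.0282 for A2780 against 0.909 ± 0.0279 for CP70, 0.877 ± 0.0123 for PEA1 against 0.727 ± 0.0248 for PEA2, and 0.912 ± 0.0297 for PEO1 against 0.92 ± 0.0107 for PEO4 (SD over 3 libraries). PEA2 was therefore the line in which the family stood lowest among promoters, with its median at percentile 30.0, against percentiles 39.7 to 46.7 in the other 5 lines. In PEA2, 56 of the 78 windows lay under the promoter median, against 42 to 46 in the others.

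**Figure D2:**
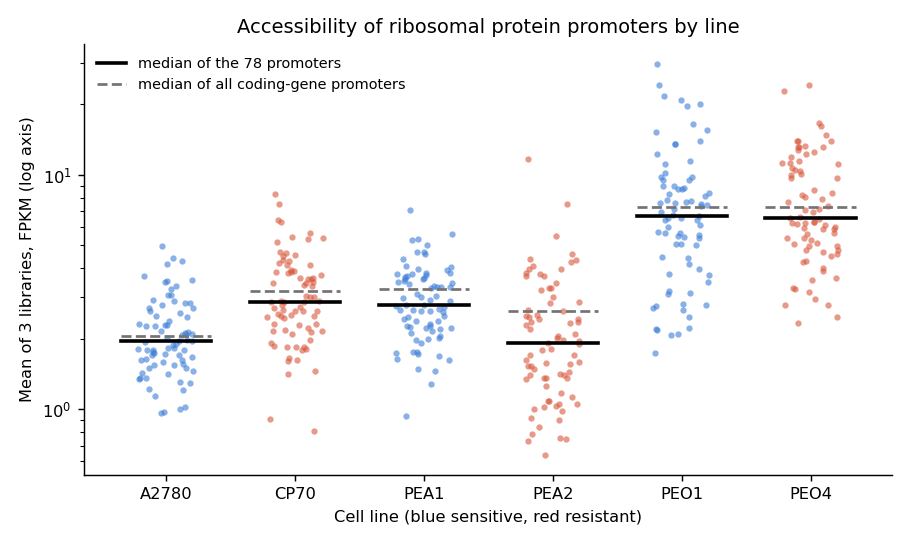
Mean FPKM of 3 libraries on a log axis (y) for each of the 78 start windows (points) in the 6 lines (x), sensitive lines in blue and resistant lines in red. Solid bars are the family medians, 1.92 to 6.68 FPKM, and dashed bars the medians of all promoters, with the widest gap in PEA2.

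The PEO lines stood highest for most genes, but the full order of the 6 lines varied. The commonest order held for 14 of 78 windows. PEO4 was the highest line for 44 windows, PEO1 for 33 and PEA2 for 1, RPL37, a large subunit protein. Both PEO lines lay above the other 4 in 70 of 78 windows, and in 74.3% of all promoters. The lowest line was PEA2 for 38 windows, A2780 for 28, PEA1 for 8 and CP70 for 4, whereas over all promoters A2780 was lowest for 50.7% and PEA2 for 27.9%. All 78 windows differed among the 6 lines at an adjusted p under 0.05 (limma F-test), as did 99.6 percent of all windows tested, so this count is no feature of the family. The least sharp of them was RPL21, with a limma adjusted p of 0.000682. The range of log2 line means had a median of 2.21 in the family, 2.25 over all promoters and 2.62 over all windows of the table, and the median replicate SD on the same scale was 0.238, 0.234 and 0.274. The spread of this family over lines was thus close to that of promoters at large. Ranks of the 78 windows were compared between lines across genes, which are not independent replicates. Spearman's rho ranged over the 15 pairs of lines from 0.35 (PEA2 and PEO4) to 0.86 (A2780 and CP70), with a median of 0.63. Over all promoters the same 2 pairs of lines gave the extremes, 0.50 and 0.89.

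By role, the 29 small subunit windows had medians of 1.89 FPKM for A2780 against 2.87 for CP70, 2.93 for PEA1 against 1.91 for PEA2, and 7.35 for PEO1 against 7.64 for PEO4. The 41 large subunit windows were at 1.95, 2.70, 2.59, 1.70, 5.96 and 6.19 FPKM in the same order. The 6 paralogues, copies with narrower or less well-known use, stood above both subunits in every line, at 3.11, 4.38, 4.15, 3.86, 14.6 and 9.23 FPKM.

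Among start windows, the highest mean over the 6 lines belonged to RPL22L1 (window chr3:170587801-170588800), a paralogue of RPL22, at 10.2 FPKM. RPL30 (9.81), RPL36AL (9.41), RPSA (9.31) and RPL15 (8.86) followed. The member window of RPL7 upstream of its start was higher than that of RPL22L1 in every line but PEO1, reaching 33.0 FPKM in PEO4. RPSA is a small subunit protein also known as the laminin receptor. RPL22L1 read 26.6, 32.3 and 30.5 FPKM in the PEO1 libraries and 13.1, 13.5 and 15.1 in PEO4, but only 2.59 to 6.67 in the 12 libraries of the other 4 lines. The PEO libraries did not overlap those of the other lines. RPL22L1 was also above the family's upper quartile in A2780 (4.28 against 2.60), CP70 (5.17 against 3.89) and PEA2 (4.37 against 2.86). In PEA1 it was below it (3.45 against 3.67). The lowest start-window means were those of RPL17 (1.5 FPKM), RPL17-C18orf32 (1.56), RPL7A (1.90), RPS10 (1.98) and RPL6 (2.00). The canonical start used for RPL6 lay 1837 bp from the RefSeq start in GRCh37 and that of RPL17-C18orf32 879 bp from it, so the first of these windows does not lie over the RefSeq promoter and the second reaches only its edge.

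RPL8 (window chr8:146016901-146017900), a large subunit protein close to the peptidyl transferase centre, had the widest range over lines, 4.39 on the log2 scale. It read 23.3, 27.1 and 22 FPKM in PEO4 and 7.99, 10.5 and 9.92 in PEO1. In PEA2 its libraries read 0.989, 1.16 and 1.02 FPKM, below all libraries of the other 5 lines, which were at 2.35 or more. RPS2 (window chr16:2014201-2015200), which lines the messenger RNA entry channel of the small subunit, had a range of 4.08, from 0.732 ± 0.103 FPKM in PEA2 to 13.9 ± 1.66 in PEO4 (SD, n = 3). RPS12 (window chr6:133135201-133136200), another small subunit protein, had a range of 3.77, from 1.05 ± 0.358 FPKM in PEA2 to 15.2 ± 1.55 in PEO1. At the other end, RPL21 (0.91), RPL36 (0.99) and RPS15 (1.00) had the narrowest ranges. RPL21 was lowest in A2780, at 1.36, 1.64 and 1.22 FPKM, and highest in PEO1, at 2.93, 2.53 and 2.67, and each of the other lines overlapped 1 of these.

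**Figure D3:**
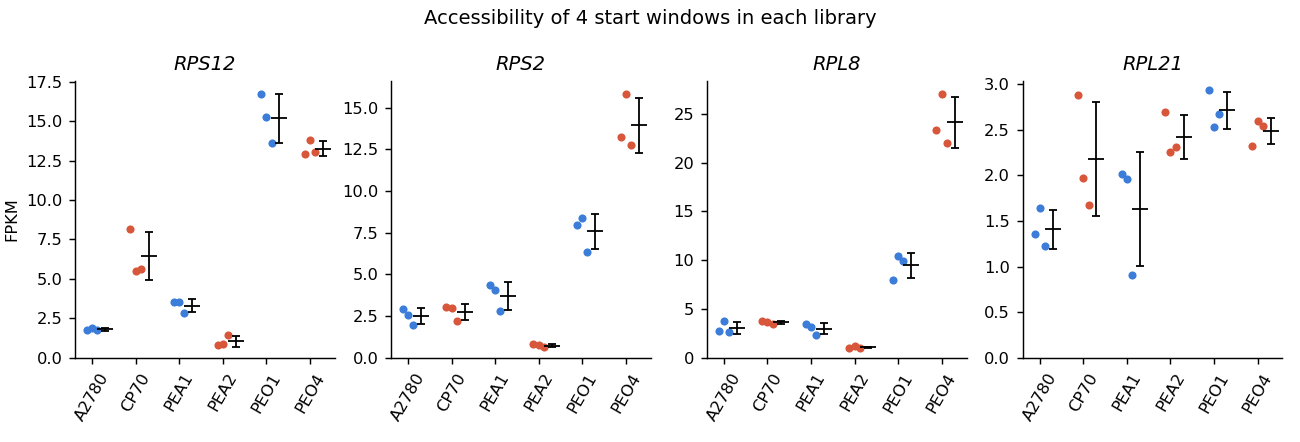
FPKM (y axis, from 0) in every library of the 6 lines (x axis) for the start windows of the 3 genes with the widest range over lines and the 1 with the narrowest. Points are libraries, sensitive blue and resistant red, and black bars are the mean ± SD of 3. RPS12, RPS2 and RPL8 fall lowest in PEA2 and highest in a PEO line, whereas RPL21 stays between 0.911 and 2.93 FPKM.

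Accessibility peaked over the start. The 78 windows holding a start had a median of 6.68 FPKM in PEO1, the 38 other member windows upstream 4.25 and the 24 downstream 3.23. In PEA2 these medians were 1.92, 1.65 and 0.91 FPKM. Of 60 genes with more than 1 member window, another window exceeded the start window in 11. The grid does not centre on starts: for the 34 windows centred within 250 bp of the start the median of the 6-line mean was 4.58 FPKM, and for the 44 centred farther away it was 3.42. Across the 78 genes this mean had a Spearman's rho of -0.24 with the distance of the window's centre from the start and of 0.34 with its GC content, both given as descriptions. The windows had a median GC content of 56.3%, against 62.6% over all promoters, and 68 of 78 (87.2%) were CpG-rich, with over 50% GC and an observed to expected CpG ratio above 0.6, against 81.4% of all promoters.

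The comparison of CP70 with A2780 asked how the promoters differed after selection for resistance in culture. Changes are differences of log2(FPKM + 0.1), which understate the change of low windows. Windows had to average over 1 FPKM in a pair, which left 76 of the 78, without RPL17 and RPL17-C18orf32. No ribosomal protein promoter passed the study's thresholds of a log2 fold change above 2 in size and an adjusted p under 0.001 (limma), while 0.797 percent of all windows tested did. The number at an unadjusted p under 0.05 (limma) was 34 of 76, against 21961 of 37128 among all windows. edgeR also called 0 at the thresholds. At an adjusted p under 0.05 without a fold limit (limma), 24 of 76 were higher in CP70 and 0 lower (edgeR 24 and 0), against 47.5 percent higher and 2.29 percent lower among all windows. The median log2 fold change was 0.50 in the family and 0.59 both in all promoters and in all windows, so the family moved with the table as a whole. Centring each library on its median over all windows, which took 0.26 from every change, left 5 promoters higher and 0 lower. Quantile normalization gave 4 higher and 6 lower, and without A2780 replicate 1 or replicate 3 the 24 became 10 or 5. The median change was 0.26 without CP70 replicate 1.

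RPS12 changed most in this pair. It read 1.74, 1.87 and 1.77 FPKM in A2780 and 8.18, 5.51 and 5.61 in CP70, with no overlap, and rose by 1.76 log2 units (limma, SE 0.29, adjusted p = 4.04e-08). RPS3A (window chr4:152019901-152020900), a small subunit protein, read 3.28, 4.06 and 3.12 FPKM in A2780 and 10.5, 7.54 and 6.74 in CP70. Its libraries did not overlap either, and it rose by 1.21 log2 units (limma, SE 0.31, adjusted p = 0.000948). RPS25 and RPS28, also of the small subunit, rose by 1.11 and 1.07 on the log2 scale. All 4 leading genes encode small subunit proteins. Of the subunits, 12 of 29 small (41.4%) and 10 of 40 large (25%) were higher, against 44.2% of all promoters. The difference between subunits was not tested.

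The comparison of PEA2 with PEA1, taken from 1 patient before treatment and at relapse, gave mostly lower values in the resistant line. All 78 windows were tested, and 38 were lower and 11 higher in PEA2 at an adjusted p under 0.05 (limma), against 21.4 percent lower and 43 percent higher among all windows. Over all promoters 36.7% were lower and 17.3% higher. The median log2 fold change was -0.50 in the family, -0.26 over all promoters and 0.31 over all windows. After median centring, which took 0.51 from every change, 65 were lower and 3 higher. After centring on all promoters, chosen after seeing the data, which added 0.28, 31 were lower and 16 higher. The study's thresholds were passed by 1 promoter, RPS2, and by 12.7 percent of all windows. The 11 higher calls became 5 without PEA1 replicate 3 or without PEA2 replicate 1, and 7 without PEA2 replicate 3.

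RPS2 read 4.36, 4.05 and 2.78 FPKM in PEA1 and 0.824, 0.751 and 0.621 in PEA2. All PEA2 libraries lay below all PEA1 libraries, a change of -2.18 log2 units (limma, SE 0.24, adjusted p = 3.44e-18). RPLP1 (window chr15:69744601-69745600), an acidic protein of the stalk that recruits elongation factors, read 5.77, 5.64 and 4.55 FPKM in PEA1 and 1.81, 1.27 and 1.51 in PEA2. It fell by 1.74 on the log2 scale (SE 0.23, limma adjusted p = 2.53e-13), again without overlap. RPL9 (window chr4:39459601-39460600), a large subunit protein, was at 2.47 ± 0.143 FPKM in PEA1 and 0.752 ± 0.257 in PEA2, a change of -1.63. RPS12, which rose in CP70, fell by 1.60 in PEA2, from 3.56, 3.55 and 2.83 FPKM to 0.824, 0.867 and 1.46.

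RPS23 (window chr5:81573301-81574300), a small subunit protein at the decoding centre, went the other way. It read 0.897, 1.18 and 0.719 FPKM in PEA1 and 2.75, 2.37 and 2.17 in PEA2. The groups did not overlap, and the promoter rose by 1.31 log2 units (limma, SE 0.25, adjusted p = 4.63e-07). RPL39L (window chr3:186857101-186858100), a paralogue of RPL39 known from the testis, rose by 1.18, from 3.33 ± 0.833 to 7.49 ± 0.332 FPKM. RPS15A rose by 0.92 and RPL37 by 0.74, and the latter reached 11.7 ± 1.45 FPKM in PEA2, its highest level in any line.

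In PEO4 against PEO1 the family split. Of 78 windows, 22 were higher and 16 lower in PEO4 at an adjusted p under 0.05 (limma), against 21.9 percent higher and 45.8 percent lower among all windows and 27.1% and 30.2% among all promoters. The median log2 fold change was 0.08, against -0.01 over all promoters and -0.30 over all windows, and median centring, which added 0.33 to every change, gave 44 higher and 6 lower. Quantile normalization gave 39 higher and 10 lower. At the study's thresholds 0 of 78 were called by limma and 0 by edgeR, while 8.49 percent of all windows were called. The number at an unadjusted p under 0.05 (limma) was 38 of 78, against 54391 of 77654 among all windows.

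RPS18 (window chr6:33239701-33240700), a small subunit head protein, read 1.72, 2.88 and 1.67 FPKM in PEO1 and 5.35, 7.49 and 6.03 in PEO4. Every PEO4 library exceeded every PEO1 library, a rise of 1.57 log2 units (limma, SE 0.19, adjusted p = 3.01e-09). RPL38, a large subunit protein known from mouse development for its part in the translation of Hox messages, read 2.12, 2.53 and 3.34 FPKM in PEO1 and 7.38, 8.11 and 8.07 in PEO4. Its change was 1.55 (SE 0.16, limma adjusted p = 1.4e-10), also without overlap. RPL8 rose by 1.35 and RPL35 by 1.07.

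RPL22L1, with the PEO values given above, fell by 1.09 in PEO4 (SE 0.10, limma adjusted p = 6.91e-12) while staying far above the other 4 lines. RPL39L fell from 20.8 ± 1.62 to 10.4 ± 0.663 FPKM, by 1.00 on the log2 scale. RPL35A, a large subunit gene mutated in Diamond-Blackfan anaemia, an inherited failure of red cell production, read 9.51, 9.60 and 7.80 FPKM in PEO1 and 5.23, 4.51 and 3.84 in PEO4, a change of -0.98. RPSA fell by 0.70, from 24.1 ± 1.52 to 14.8 ± 0.233 FPKM. All 4 of these genes lie on chromosome 3.

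**Figure D4:**
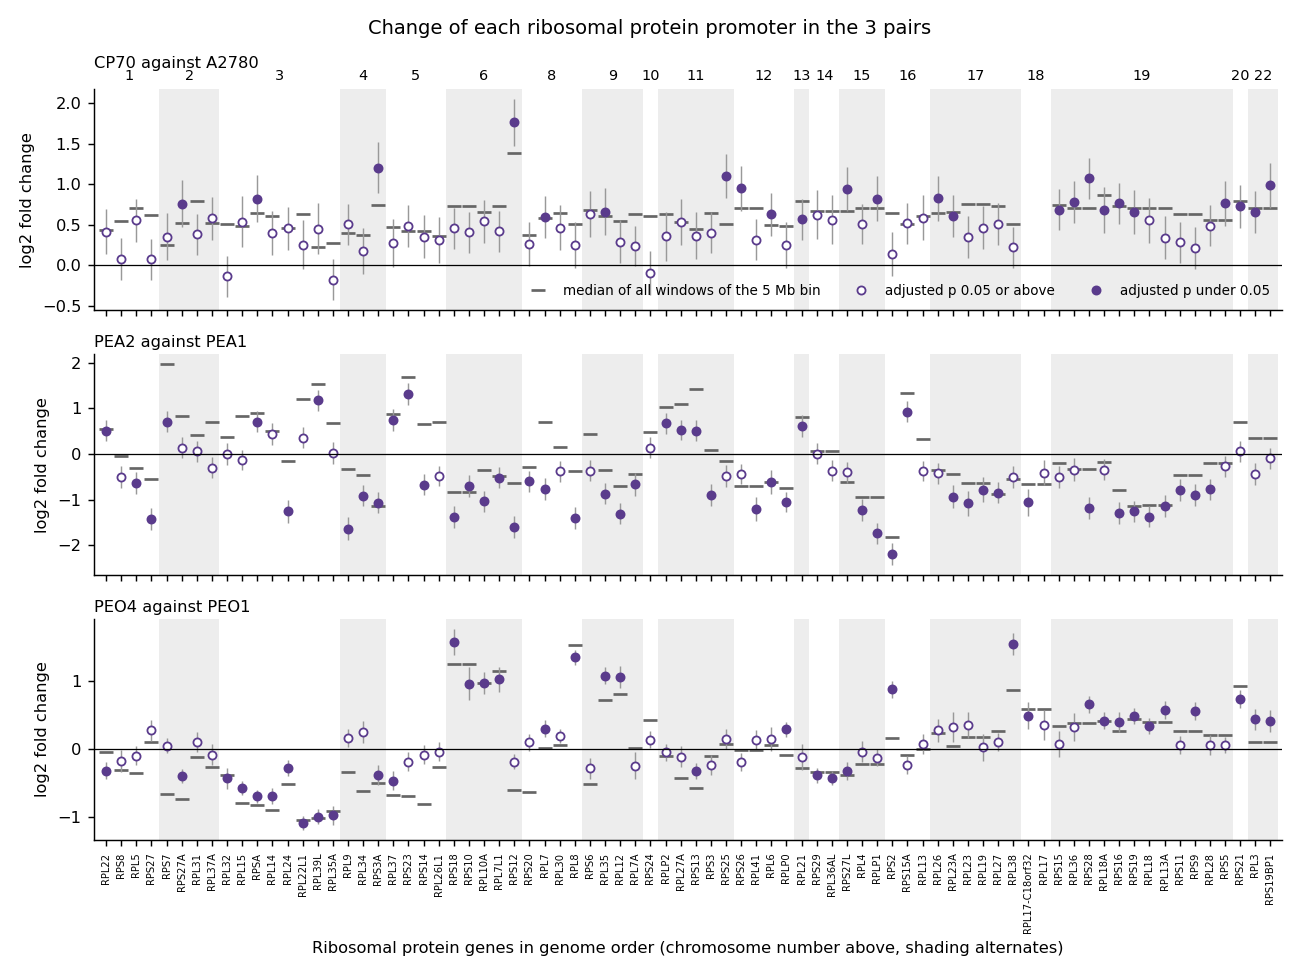
Log2 fold change (y axis) of each start window in the 3 pairs (panels), with genes in genome order (x axis) and chromosome numbers on top. Filled points passed an adjusted p under 0.05, vertical bars are SE and grey dashes are the median of all windows in the same 5 Mb bin. Neighbouring genes move together with their bins in PEA2 and PEO4, as on chromosome 3, where 8 of 8 windows were lower in PEO4.

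Neighbouring genes often changed together. On chromosome 3, 8 of 8 ribosomal protein promoters were lower in PEO4, by 0.28 to 1.09 on the log2 scale, where the median over all 5526 windows of that chromosome was -0.77. On chromosome 6, RPS18, RPS10, RPL10A and RPL7L1, all between RPS18 at chr6:33239701-33240700 and RPL7L1 at chr6:42847201-42848200, were higher in PEO4 by 0.96 to 1.57, and RPS12 on the other arm had a change of -0.19. On chromosome 19, which carries 12 of the windows, 12 of 12 had a negative change in PEA2 (8 passing) and 12 of 12 a positive change in PEO4 (7 passing) and in CP70 (7 passing). The medians over all windows of chromosome 19 were -0.45, 0.33 and 0.70 in the same order.

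Each change was therefore set beside the median change of all windows in its 5 Mb bin, which held at least 24 windows and included the promoter's own. Over the family Spearman's rho between the 2 was 0.44 between CP70 and A2780 (n = 76), 0.83 for the PEA lines and 0.86 for the PEO lines (n = 78 each). Over all promoters it was 0.47, 0.76 and 0.73, so the relation was not peculiar to this family. These are correlations across genes, some of which share a bin, and they are given without a test. The sign of the change matched that of the bin in 73 of 76, 66 of 78 and 69 of 78 promoters (96.1%, 84.6% and 88.5%). Over all promoters the shares were 93.6%, 75.7% and 76.2%. In CP70 every bin median of the family was positive, at 0.23 or more, so its 73 are simply the promoters with a positive change.

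**Figure D5:**
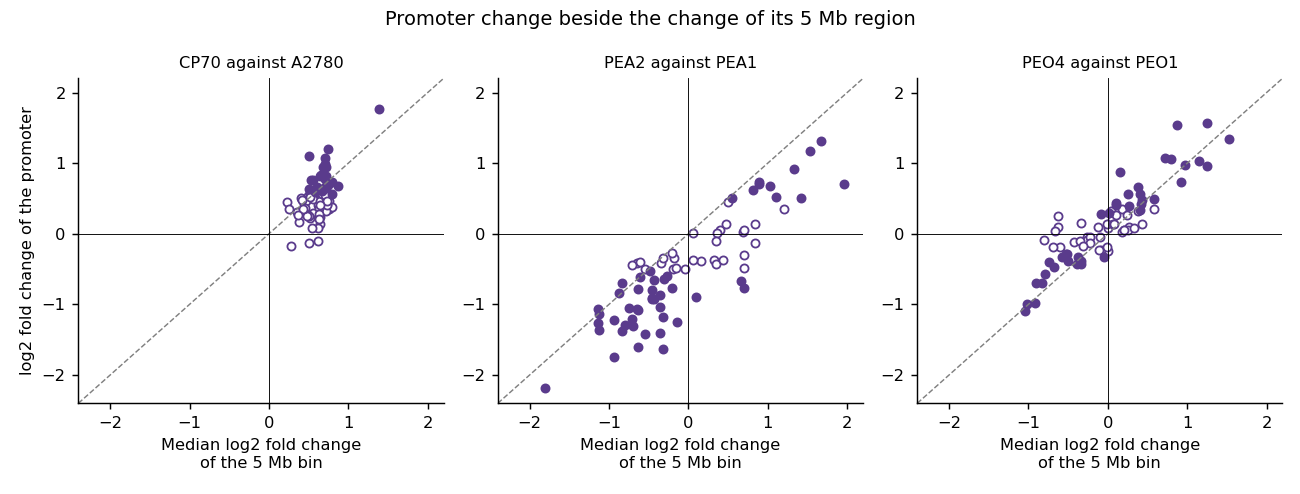
Log2 fold change of each start window (y axis) against the median log2 fold change of all windows in its 5 Mb bin (x axis) in the 3 pairs, filled where the adjusted p was under 0.05. The dashed line marks equality. Points run along it for the PEO lines and mostly below it for the PEA lines, with Spearman's rho of 0.86 and 0.83.

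With the bin median taken out before the test, fewer promoters were called in each pair. In CP70, 0 of the 24 higher calls passed (limma adjusted p under 0.05), and the median change became -0.08. In PEA2, 0 of the 11 higher calls passed and all 11 turned negative, while 14 of the 38 lower calls also passed then, among 28 lower and 0 higher in all. In PEO4, 4 of the 22 higher calls passed among 12 higher in all, and 0 of the 16 lower calls did. Among all promoters 0.948% came out higher and 2.76% lower for CP70 after this step, with a median change of -0.007. For PEA2 33.4% came out lower and 5.64% higher, and for PEO4 31.8% higher and 9.54% lower. In these 2 lines the bin median, set mostly by windows away from promoters, thus also takes out a difference between promoters and other windows. RPS2 was left with a change of -0.37 in PEA2 (limma adjusted p = 0.167), where its bin had a median of -1.81. RPL8 was left with -0.19 in PEO4, where its bin had a median of 1.53. RPL9 kept a change of -1.31 in PEA2 (limma adjusted p = 8.83e-07), beside a bin median of -0.32, and RPL38 one of 0.68 in PEO4 (limma adjusted p = 0.00318), beside 0.87. RPS12 kept -0.96 in PEA2 (limma adjusted p = 0.000156) but 0.38 in CP70 (limma adjusted p = 0.679), where the bin median was 1.39. What moved the bins was not tested.

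The pairs were compared with one another by testing the difference of their log2 fold changes. The change of 54 of 77 promoters differed between the PEA and A2780 pairs, of 26 of 78 between the PEO and A2780 pairs and of 57 of 78 between the PEO and PEA pairs (limma adjusted p under 0.05). The shares over all windows were 55.7 percent, 48.1 percent and 68.1 percent. Over all promoters 6858 of 11854, 5215 of 12042 and 7352 of 12136 differed. Of the 26, the change was higher in the PEO pair for 5 and lower for 21. After median centring 15 were higher and 4 lower, so the direction of this difference depended on the scaling. Centring gave 59 for the PEA and A2780 pairs and 65 for the PEO and PEA pairs. Of the 54, the change was lower in the PEA pair for 53, as it was for 6097 of 6858 promoters of all coding genes and 18886 of 31916 windows that differed. The sharpest differences were those of RPS12 between the PEA and A2780 pairs (-3.36, SE 0.34, limma adjusted p = 1.22e-15) and of RPS2 (3.06, SE 0.27, limma adjusted p = 1.43e-13) and RPL8 (2.75, SE 0.25, limma adjusted p = 6.06e-13) between the PEO and PEA pairs. RPS12 thus rose in one pair and fell in another, and RPS2 and RPL8 fell in PEA2 and rose in PEO4.

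Few promoters of the family had a change of the same sign in the 3 resistant lines. The same count was not made over all promoters, whose median changes in CP70, PEA2 and PEO4 (0.59, -0.26 and -0.01) also differed in sign. Whether a low number is particular to the family was therefore not tested. Of 76 promoters tested in all pairs, 3 had a positive change in each (RPL31, RPS21 and RPS7) and 0 a negative one in each, and none of the 3 passed in all pairs. RPS21 came closest, with changes of 0.73 in CP70 (limma adjusted p = 0.0174), 0.06 in PEA2 (0.83) and 0.74 in PEO4 (6.74e-06). With the 6 line means as samples and the pair as a block, 0 of 78 promoters differed between resistant and sensitive lines at an adjusted p under 0.05 (limma), as did 0 percent of all windows tested, and 0 reached an unadjusted p under 0.05. Over all 74141 windows 1021 reached an unadjusted p under 0.05, with a smallest adjusted p of 0.172, so that this fit called no window at all and its 0 says nothing about the family. No other tool was run for this comparison.

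Sets of ribosomal protein genes with known further roles were counted in the same way. Beside each count stand the shares over all coding-gene promoters, which for CP70 were 44.2% higher against 1.48% lower, for PEA2 17.3% against 36.7%, and for PEO4 27.1% against 30.2%. No set was tested against them. Of 8 Diamond-Blackfan anaemia genes with a start window, 2 were higher and 0 lower in CP70, 1 higher and 3 lower in PEA2, and 2 higher and 2 lower in PEO4. RPS19, the gene most often mutated in that disease, rose by 0.65 in CP70 and 0.48 in PEO4 and fell by 1.26 in PEA2. RPS7 rose by 0.71 in PEA2 and RPS26 by 0.95 in CP70. Of 7 genes with a role outside the ribosome, such as RPS3 in DNA repair and RPL13A in silencing of inflammatory messages, 2 were higher in CP70, 2 higher and 3 lower in PEA2, and 1 higher and 3 lower in PEO4. RPL13A fell by 1.14 in PEA2 and rose by 0.57 in PEO4. RPSA rose by 0.82 in CP70 and 0.71 in PEA2 but fell in PEO4, as given above. The 3 stalk proteins split in PEA2, where RPLP2 rose by 0.67 and RPLP0 and RPLP1 fell by 1.05 and 1.74. Of the 6 paralogues 4 were lower in PEO4 (RPL22L1, RPL39L, RPL36AL and RPS27L) and 1, RPL7L1, was higher.

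Other genes of the translation machinery were set beside the family, and their counts are to be read against the same shares over all promoters. FAU and RACK1 encode ribosomal proteins that the symbol rule misses. FAU, whose product is processed into a small subunit protein, rose by 0.71 in CP70 and 0.47 in PEO4 and fell by 1.26 in PEA2. Its window (chr11:64889101-64890100) also holds the start of MRPL49 and is counted again among the mitochondrial ribosomal proteins. RACK1, a scaffold protein of the small subunit, fell by 0.45 in PEO4, and its changes of 0.43 in CP70 and -0.06 in PEA2 did not pass. Of 16 translation factor promoters, 5 were higher and 0 lower in CP70, 3 higher and 9 lower in PEA2, and 5 higher and 2 lower in PEO4. TPT1, itself a TOP gene, fell by 1.68 in PEA2, EEF1A1, the main elongation factor, rose by 1.18 in PEO4, and EIF2S1 rose by 1.17 in CP70. Of 14 ribosome biogenesis promoters the counts were 6 and 0, 0 and 7, and 3 and 1. BYSL rose by 1.64 in PEO4, UBTF, a factor of ribosomal RNA transcription, rose by 1.23 in CP70, and FBL, the fibrillarin gene, fell by 1.32 in PEA2. The mitochondrial ribosomal proteins, 77 windows in all, had 37 of 76 higher and 0 lower in CP70, 16 higher and 35 lower in PEA2, and 22 higher and 22 lower in PEO4. Their medians of 0.60, -0.42 and -0.02 lay beside 0.50, -0.50 and 0.08 in the cytoplasmic family.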

How the data were processed

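ATAC-seq libraries of 6 cell lines, 3 replicates each, were grouped by their labels. Per the study's methods, the authors removed duplicates with Picard, aligned reads with Bowtie2 against hg19, kept those with a unique alignment, counted them in 1 kb windows with featureCounts and deposited FPKM values, which for windows of 1000 bp equal RPM. Versions of these tools were not given in the sources used here. Many ribosomal protein genes have processed pseudogenes, whose effect on unique alignment was not tested. Values scaled to library totals move with the share of a library in open chromatin.

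The table's windows start every 900 bp and share 100 bp with a neighbour. The start window of a gene was the one holding its canonical start in GENCODE 44 (mapped to GRCh37). The members and lists were chosen with earlier results of these data known. Divided by the step that 1 read makes in its column, 100% of the authors' FPKM values came out whole (within 0.1 read), which gave reads and library totals. Replicates of a line differed by more than sampling noise and all were kept. Reads carry no molecular identifiers, so limits drawn from them cover counting error only.

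Log2(FPKM + 0.1) values of windows with a mean above 1 FPKM were fitted per pair with limma 3.58.1 (mean-variance trend) in R 4.3.3, over the whole table, with Benjamini-Hochberg adjustment. The study used voom weights and also an upper depth limit, neither applied here, since the deposited values are FPKM. edgeR 4.0.16 on the recovered reads was an alternative. The fits were tested on simulated data.

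Named genes were, per pair and direction, the 4 largest changes with an adjusted p under 0.05 and non-overlapping libraries, those at the study's thresholds, the 5 highest and 5 lowest levels, the 3 widest and 3 narrowest ranges, the 3 sharpest differences between pairs, and the gene lists. Genes named in runs along a chromosome were chosen after their values were seen. Some genes of these lists are not reported here.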

Additional observations from a re-analysis of the deposited data

Results flagged for a closer look

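These results were flagged because the change within one pair differed from that within another by a test of the difference itself. Between the PEA and A2780 pairs the change differed for 54 of 77 ribosomal protein promoters (limma adjusted p under 0.05). Between the PEO and A2780 pairs it differed for 26 of 78 and between the PEO and PEA pairs for 57 of 78. The shares of all windows were 55.7, 48.1 and 68.1 percent, so the 26 lay under the share of all windows. The difference was -3.36 on the log2 scale for RPS12 (PEA minus A2780), 3.06 for RPS2 (PEO minus PEA) and 2.75 for RPL8 (PEO minus PEA).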

How the results depend on the processing

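A pseudocount of 0.5 FPKM, no filter on low windows, edgeR, the replicate block and the core list kept the direction of every median change and left the counts of higher and lower calls within 1.5 times, except that with the larger pseudocount the 1 call at the study's thresholds in PEA2 became 0. A minimum of 5 FPKM left 3, 2 and 57 promoters in the A2780, PEA and PEO pairs. Higher calls were then 1, 2 and 14, lower calls in PEA2 0, calls at the study's thresholds in PEA2 0, and the median change turned to 0.96 in PEA2 and -0.040 in PEO4, where fewer windows were tested. Median centring gave 5, 3 and 44 higher calls in CP70, PEA2 and PEO4, 65 and 6 lower calls in PEA2 and PEO4, 4 calls at the study's thresholds in PEA2, and medians of -1.01 and 0.41. Quantile normalization gave 4, 7 and 39 higher calls, 6 lower calls in CP70 and 10 in PEO4, 4 calls at the thresholds in PEA2, and medians of -0.090, -0.93 and 0.30. Centring on all promoters, chosen after seeing the data, gave 3 higher and 3 lower calls and a median of -0.094 in CP70, and 0 calls at the thresholds and a median of -0.22 in PEA2. Removal of the 5 Mb median gave 0, 0 and 12 higher calls, 0 lower calls in PEO4, 0 calls at the thresholds in PEA2 and a median of -0.081 in CP70. It turned the sign of RPL37 (-0.14), RPL39L (-0.35), RPS15A (-0.41) and RPS23 (-0.37) in PEA2 and of RPL39L (0.022), RPL8 (-0.19) and RPSA (0.13) in PEO4. What moved the values under these scalings was not tested. Counting all member windows gave 42, 17 and 34 higher calls, 61 and 33 lower calls in PEA2 and PEO4 and 2 at the thresholds in PEA2, over more windows.

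Leaving out each library in turn gave 5 to 25 higher calls in CP70, 5 to 12 in PEA2 and 16 to 26 in PEO4, and 32 to 48 lower calls in PEA2 and 11 to 16 in PEO4. The median FPKM in PEA2 was 1.86 to 1.87 without 1 of its libraries, 2.08 with the highest window of each gene, 1.67 with the mean of its windows and 1.75 over the core list. The highest window and the mean gave 7.47 and 5.76 FPKM in PEO1, and the mean 5.87 in PEO4. Replicate numbers did not pair the libraries (correlations of deviations from -0.41 to 0.04), and the replicate block gave 17, 8 and 23 higher calls and 0, 37 and 16 lower, and changed the call of no named gene. Depth limits RPL17 and RPL17-C18orf32, which fell under the filter in the A2780 pair, and windows near 8 reads.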
